A study of Homo sapiens with 24 samples.

Results

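The 10 genes described here govern or mark the epithelial-mesenchymal transition (EMT): the cadherins CDH1 and CDH2, the intermediate filament gene VIM, the transcription factors SNAI1, SNAI2, ZEB1, ZEB2 and TWIST1, and the splicing factors ESRP1 and ESRP2. They were chosen by name, and all 10 were found among the 27274 gene names of the array, where 14 of the 34127 probes that are not controls measure them. Expression was measured in HCT-116 cells, a human colorectal cancer line. The study used 1 stably transfected clone, so all groups carry a Tet repressor and a doxycycline-inducible, FLAG-tagged DN-Tcf4, which cannot bind beta-catenin and acts as a dominant negative in the Wnt pathway. Cells were untreated (Ctl), or received 5 mM sodium butyrate (NaB), 4 μg/ml doxycycline (Doxy) or both agents (DoxyNaB) for 17.5 hr. Butyrate is a short-chain fatty acid that inhibits histone deacetylases. There were 6 experiments, biological replicates per the methods, and every treatment of an experiment had its own array, which makes 24. The study asked which butyrate responses differ when Wnt signaling is repressed, that is, how the butyrate response without doxycycline (NaB/Ctl) compares with that in its presence (DoxyNaB/Doxy).

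In EMT, epithelial cells loosen their junctions and take on the shape and motility of mesenchymal cells. SNAI1, SNAI2, ZEB1 and ZEB2 bind E-box sequences and are known as repressors of CDH1, whose product E-cadherin holds epithelial cells together and binds beta-catenin at the membrane. TWIST1 is a helix-loop-helix factor that acts in the same programme, while ESRP1 and ESRP2 maintain the splice forms of epithelial cells. Colorectal cancer lines such as HCT-116 keep epithelial features, and Wnt signaling is one of the pathways known to feed into EMT.

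A level is the log2 of the signal of a probe over the 75th percentile of its array, so that a level can be compared between arrays but not between genes. Whether a spot was well above background was taken from the feature extraction software, and 52.7% to 88.1% of the spots passed. The 12 arrays of experiments 2 to 4, which share a scan date (called a scan here), had 78.4% to 88.1%, and the other 12 arrays had at most 62.6%. The negative controls were highest on the DoxyNaB array of experiment 2, with a net signal of 248.9, and on the NaB array of experiment 3, with 161, against 48.4 to 115 elsewhere. The epithelial genes KRT8, KRT18, KRT19, EPCAM, CDX1 and CDX2 were well above background on 24 of 24 arrays, whereas the colon markers KRT20, LGALS4, VIL1 and CDH17 were so on 13, 12, 5 and 2. In bulk RNA, fewer cells of a type and less RNA per cell cannot be told apart. TCF7L2, the gene that encodes Tcf4, has 3 tested probes on chromosome 10, starting at positions 114915968, 114901475 and 114714311. In DoxyNaB/NaB the first was 21.9-fold higher (limma adjusted p = 1.77e-06), the second 7.80-fold higher (limma adjusted p = 3.65e-05) and the third lower, at 0.419-fold (limma adjusted p = 0.00568). In Doxy/Ctl none of the 3 was called by limma (log2 -0.17 to 0.36), and the first was also 3.74-fold higher in NaB/Ctl (limma adjusted p = 4.68e-04). Which of these probes lie in the construct could not be checked here.

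Butyrate raised VIM, SNAI1, SNAI2 and ZEB1 and lowered ESRP1 and ESRP2. A gene counts as called when it changed over 2-fold with a Benjamini-Hochberg adjusted p under 0.01 in limma, over the 18984 probes for which 1 or more treatments had all 6 arrays well above background. This filter passed 8 of the 10 members and left out CDH2 and ZEB2. In NaB/Ctl 6 of the 8 were called, 4 higher and 2 lower, beside 31.7% of all probes tested. With 1 probe per gene, 21.0% of 15163 genes were called higher and 11.5% lower. The median log2 change over the 8 members was 1.32, against 0.17 over all genes tested. SNAI2 passed the filter through the NaB arrays alone, where it is high, so its count as a change follows in part from the filter. Of the 7 members well above background on all 24 arrays 5 were called in NaB/Ctl, with a median of 0.99, and 4 in DoxyNaB/Doxy, with a median of 0.87. The shares of all probes called under this stricter filter are not given here, so these counts do not set the members apart from other genes. In DoxyNaB/Doxy 5 of the 8 tested members were called, VIM, SNAI1, SNAI2 and ZEB1 higher and ESRP1 lower. Of all probes 30.6% were called and, per gene, 18.7% higher and 12.5% lower, and the median was 0.96 against 0.11. These 2 comparisons use separate samples.

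**Figure D1:**
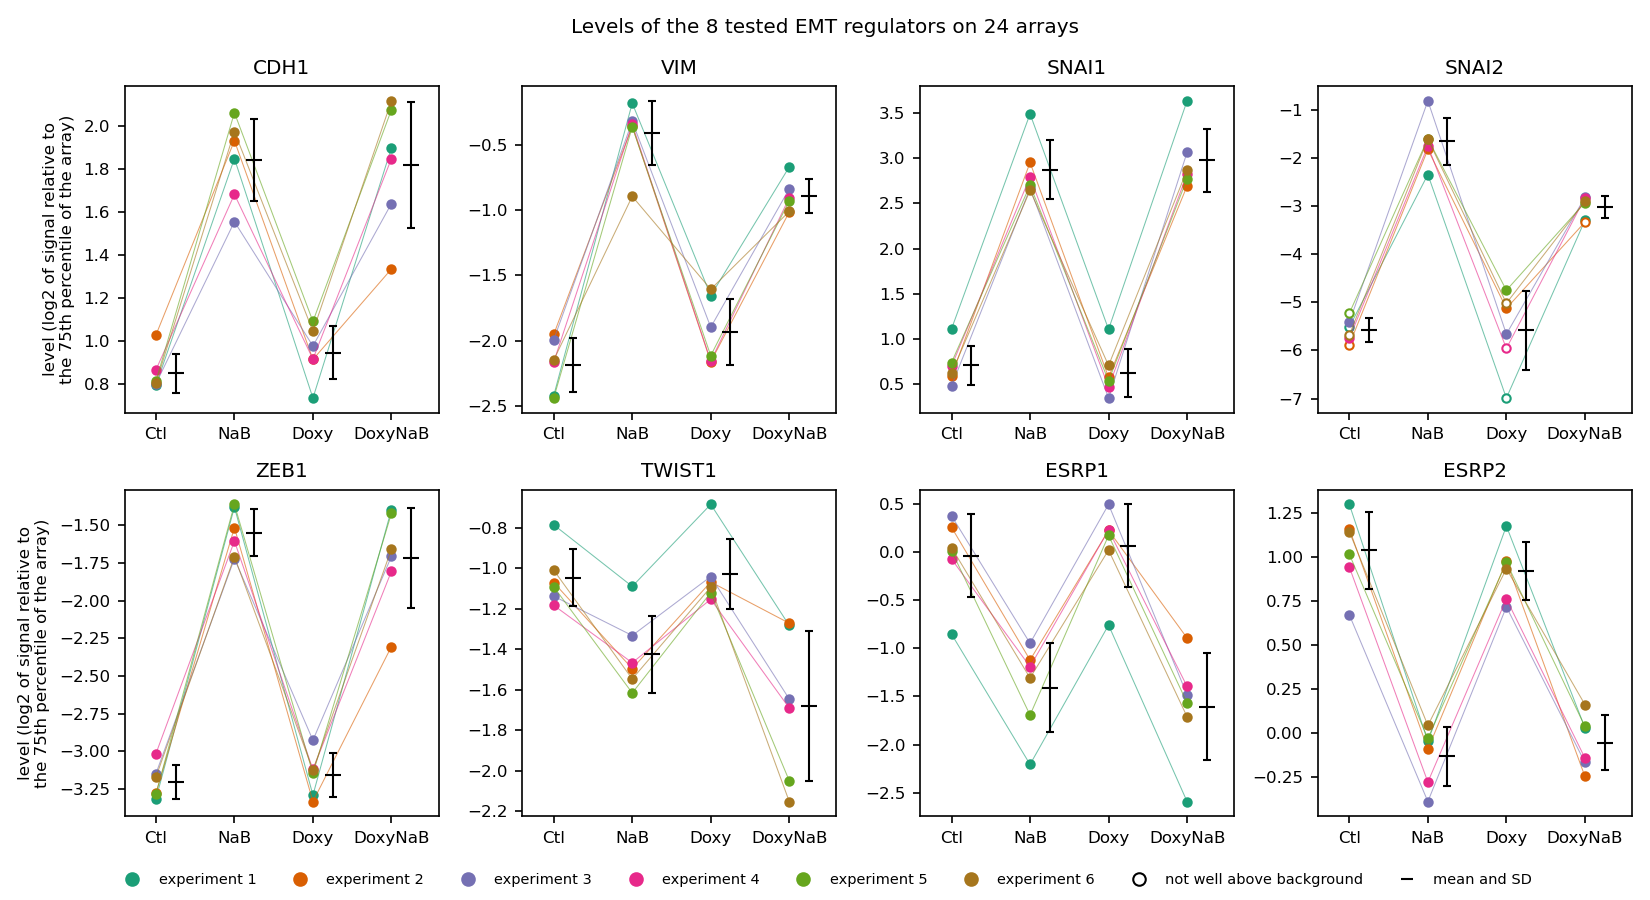
Level of each tested member (log2 signal over the 75th percentile of the array) under the 4 treatments. Points are arrays coloured and joined by experiment, open points were not well above background, and black bars give the mean and SD of 6 arrays. The NaB arrays of SNAI2 lie between -2.35 and -0.82 and all its Ctl arrays lie at or below -5.23.

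CDH1 encodes E-cadherin. Its probe (chromosome 16, 67426715-67426774, NCBI36, plus strand) is printed in 10 spots, which were averaged. In the Ctl samples its level ran from 0.79 to 1.03 with a median of 0.81, and in the NaB samples from 1.56 to 2.06 with a median of 1.89. The Doxy samples lay between 0.73 and 1.09 (median 0.95) and the DoxyNaB samples between 1.34 and 2.12 (median 1.87). All samples with butyrate were thus above all samples without it. CDH1 was 1.99-fold higher in NaB/Ctl (log2 0.99 ± 0.10 SE, n = 6, limma adjusted p = 1.04e-07), just short of the 2-fold threshold, and higher in 6 of 6 experiments. The difference in DoxyNaB/Doxy was 1.83-fold (log2 0.87 ± 0.10, limma adjusted p = 5.64e-07), again in 6 of 6. CDH1, the gene that the SNAI and ZEB factors are known to repress, was thus higher in the same samples in which SNAI1, SNAI2 and ZEB1 were higher. With the arrays scaled to their median signal, the NaB/Ctl difference was 0.24 (limma adjusted p = 0.386). It was over 2-fold without experiment 2, 3 or 4, with log2 values of 1.01, 1.04 and 1.03.

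VIM encodes vimentin, the intermediate filament protein of mesenchymal cells, and has been described as a target of beta-catenin and Tcf. The positions of its probe run from 17318353 to 17319262 on the plus strand of chromosome 10 (NCBI36). In the Ctl samples its level lay between -2.44 and -1.95 (median -2.16) and in the NaB samples between -0.89 and -0.18 (median -0.35). The Doxy samples ran from -2.16 to -1.61 (median -2.01) and the DoxyNaB samples from -1.01 to -0.67 (median -0.92). The samples with butyrate did not overlap those without it, and the DoxyNaB samples were lower than the NaB samples of the same experiment in 6 of 6 experiments. VIM rose 3.43-fold in NaB/Ctl (log2 1.78 ± 0.13 SE, limma adjusted p = 4.77e-10) and 2.05-fold in DoxyNaB/Doxy (log2 1.04 ± 0.13, limma adjusted p = 6.90e-07). The difference between these responses was 0.74 ± 0.18 on the log2 scale, positive in 6 of 6 experiments, with a limma adjusted p of 0.0357 that misses the threshold of 0.01. It was 0.34 after normexp background correction (limma adjusted p = 0.612), 0.81 with quantile normalization (limma adjusted p = 0.168) and, under median scaling, 0.55 (limma adjusted p = 0.983). In DoxyNaB/NaB the log2 difference was -0.48 ± 0.13 (limma adjusted p = 0.0336). The DoxyNaB/Doxy call stands close to the threshold: the log2 change was 0.996 without experiment 4 and 0.997 with the slide as block, both just under 2-fold, and 0.48 with the arrays scaled to their median (limma adjusted p = 0.0507). Markers of other cell types were also higher with butyrate. The summed signal of 8 markers of fibroblasts, which express vimentin, was 36.8% to 55.4% of the 75th percentile in Ctl, 99.5% to 191% in NaB, 27.8% to 60.5% in Doxy and 126.8% to 233% in DoxyNaB. That of 5 leukocyte markers was 15.7% to 42.2% in Ctl, 61.2% to 105% in NaB, 14.6% to 39.1% in Doxy and 53.1% to 122% in DoxyNaB, and that of 6 endothelial markers 11.4% to 26.2%, 21.7% to 89.7%, 13.7% to 62.4% and 23.3% to 128%. The median fibroblast sum was 137% in NaB and 172% in DoxyNaB. The sum of 10 colon epithelial markers was higher with butyrate too, with medians of 23799% in Ctl, 32910% in NaB, 23475% in Doxy and 32059% in DoxyNaB. Of the fibroblast markers, COL1A1 was well above background on 24 arrays, THY1 on 14, COL1A2 on 10, PDGFRB on 9, DCN on 7, PDGFRA on 5, LUM on 1 and COL3A1 on 0. THY1, with 0 Ctl and 2 Doxy arrays well above background, passed the filter only through the treatments with butyrate, where it is high. It was at least 24.3-fold higher in NaB than in Ctl. The limma adjusted p of 1.40e-10 belongs to its measured log2 change of 5.66, not to this bound. The part of these markers in the change of VIM was not tested.

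SNAI1 encodes Snail, a zinc finger repressor. Its probe lies on chromosome 20 at 48038577-48038636 (NCBI36, plus strand). Its level was between 0.48 and 1.11 (median 0.66) in the Ctl samples and between 2.64 and 3.49 (median 2.75) in the NaB samples. The range was 0.35 to 1.11 (median 0.56) in Doxy and 2.69 to 3.63 (median 2.85) in DoxyNaB. Experiment 1 gave the highest level under each of the 4 treatments. SNAI1 rose 4.48-fold in NaB/Ctl (log2 2.16 ± 0.08 SE, limma adjusted p = 1.33e-13) and 5.09-fold in DoxyNaB/Doxy (log2 2.35 ± 0.08, limma adjusted p = 4.39e-14), in 6 of 6 experiments each. The difference between the responses was -0.19 ± 0.12 (limma adjusted p = 0.587).

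SNAI2 encodes Slug, a repressor closely related to Snail. It is measured by 1 probe on chromosome 8 (49993263-49993322, NCBI36, minus strand). In the Ctl samples its level lay between -5.88 and -5.23 (median -5.59), and 2 of these 6 arrays were well above background. The NaB samples lay between -2.35 and -0.82 (median -1.68), with 6 of 6 arrays well above background. SNAI2 was thus near the background of the arrays without butyrate and clearly measured with it. In the Doxy samples the level ran from -6.99 to -4.75 (median -5.39, 3 arrays well above background), and in the DoxyNaB samples from -3.34 to -2.82 (median -2.92, 5 arrays). The DoxyNaB samples lay in a narrow band, below every NaB sample and above every Doxy sample. The probe was tested because of its NaB arrays, and the changes are measured against groups that lie mostly at background. SNAI2 rose in NaB/Ctl with a log2 change of 3.92 ± 0.24 SE (limma adjusted p = 5.13e-11) and in DoxyNaB/Doxy with 2.56 ± 0.24 (limma adjusted p = 1.80e-08), in 6 of 6 experiments each. The sizes depend on how the low signals are treated, since they were 1.45 and 1.10 after normexp background correction.

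SNAI2, which passed the filter through NaB alone, was also the 1 member called in DoxyNaB/NaB, beside 0.379% of all probes and 0.264% of genes called lower. It fell by 1.36 ± 0.24 on the log2 scale, a 2.57-fold difference (limma adjusted p = 0.00160), and was lower in 6 of 6 experiments. The difference between its butyrate responses was 1.35 ± 0.34, positive in 5 of 6 experiments, and its limma adjusted p of 0.0409 misses the threshold. It was 0.35 after normexp background correction (limma adjusted p = 0.706), 1.42 with quantile normalization (limma adjusted p = 0.226) and, under median scaling, 1.16 (limma adjusted p = 0.927). The exception is experiment 1, where the Doxy level of -6.99 was the lowest of all and not well above background. Without this experiment, singled out here after its value was seen, the difference was 1.73 (limma adjusted p = 0.00509). The DoxyNaB/NaB call is lost after normexp background correction (-0.49, limma adjusted p = 0.478), with scaling to the median (-1.26, limma adjusted p = 0.0248), on leaving out the 2 arrays of highest negative controls (-1.14, limma adjusted p = 0.0141), and without experiment 3 (-1.23, limma adjusted p = 0.0139) or experiment 6 (-1.37, limma adjusted p = 0.0104). Within experiments 2 to 4 the value was -1.53 (limma adjusted p = 0.0685) and within experiments 5 and 6 it was -1.31 (limma adjusted p = 0.0410).

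ZEB1 encodes a zinc finger and homeodomain repressor of epithelial genes. Of its 2 probes, on the plus strand of chromosome 10 (NCBI36), that at 31858069-31858128 has the higher mean level and stands for the gene. Its level was between -3.32 and -3.02 (median -3.23) in the Ctl samples and between -1.72 and -1.36 (median -1.56) in the NaB samples. The Doxy samples ran from -3.33 to -2.93 (median -3.14) and the DoxyNaB samples from -2.30 to -1.39 (median -1.68). The groups with and without butyrate did not overlap, and the lowest DoxyNaB sample, from experiment 2, was on the array with the highest negative controls. ZEB1 rose 3.15-fold in NaB/Ctl (log2 1.66 ± 0.11 SE, limma adjusted p = 3.37e-10) and 2.72-fold in DoxyNaB/Doxy (log2 1.44 ± 0.11, limma adjusted p = 2.28e-09). The probe at 31856267-31856326 was called in both as well, with log2 changes of 1.77 and 1.54. The NaB/Ctl change of the first probe stayed higher but fell under 2-fold after normexp background correction (0.83), quantile normalization (0.89, limma adjusted p = 0.0441) and scaling to the median (0.91). Its DoxyNaB/Doxy change was also under 2-fold with quantile normalization (0.65, limma adjusted p = 0.133) and scaling to the median (0.88).

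VIM and ZEB1 both rose with butyrate and both have upstream sequence in the RefSeq table used here (GRCh38.p14), which also holds CDH2 and ZEB2 and lists 11 windows for these 4 genes. CDH1, SNAI1, SNAI2, TWIST1, ESRP1 and ESRP2 have no entry in it. The 250 bases before a start of each gene are printed from 5′ to 3′ to show the letters that were searched, from chr10:17227991-17228240 for VIM and chr10:31318167-31318416 for ZEB1, the most upstream of its 7 windows, both on the plus strand. Capitals mark the E-box that SNAI and ZEB proteins are known to bind, CACCTG or, on the other strand, CAGGTG.
VIM: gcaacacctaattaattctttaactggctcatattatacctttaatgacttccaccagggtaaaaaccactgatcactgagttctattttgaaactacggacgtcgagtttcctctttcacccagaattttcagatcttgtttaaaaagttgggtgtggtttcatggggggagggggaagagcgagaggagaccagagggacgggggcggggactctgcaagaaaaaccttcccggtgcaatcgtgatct
ZEB1: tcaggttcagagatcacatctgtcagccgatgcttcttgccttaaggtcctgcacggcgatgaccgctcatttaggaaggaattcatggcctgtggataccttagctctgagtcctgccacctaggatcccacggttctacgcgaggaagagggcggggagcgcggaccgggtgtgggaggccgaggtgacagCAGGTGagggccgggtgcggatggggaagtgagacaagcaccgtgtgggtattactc
The ZEB1 window held this E-box in 1 copy, whose first base lies 57 bases before the start, and the VIM window in 0 copies. Of all 35116 windows of this length 17.5% held at least 1 copy. Of the 11 windows of VIM, ZEB1, CDH2 and ZEB2, 2 held it, both of ZEB1. For Tcf only 1 form of the core was searched, CTTTGA or, on the other strand, TCAAAG, which does not overlap the E-box letters. This form was in 0 of the 11 and in 11.2% of all windows. Other forms, such as CTTTGT, were not searched, so the windows may hold them. VIM had 8 CG dinucleotides and ZEB1 15, against a median of 11.

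TWIST1 has 2 probes on the minus strand of chromosome 7 (NCBI36), and they disagree. That at 19122987-19123046 was measured well above background throughout. Its level lay between -1.18 and -0.78 (median -1.08) in the Ctl samples and between -1.62 and -1.09 (median -1.48) in the NaB samples. In the Doxy samples it ran from -1.15 to -0.68 (median -1.08) and in the DoxyNaB samples from -2.15 to -1.27 (median -1.67). These levels were lower with butyrate in 6 of 6 experiments, although the Ctl and NaB ranges overlapped. The log2 difference was -0.38 ± 0.10 SE in NaB/Ctl (limma adjusted p = 0.00163) and -0.66 ± 0.10 in DoxyNaB/Doxy (limma adjusted p = 6.31e-06), both under 2-fold. With the arrays scaled to their median both passed it, at -1.13 and -1.22. The probe at 19122170-19122229 was well above background on 7 of 24 arrays, all of experiments 2 to 4, and was not tested. Its mean difference in NaB/Ctl was 0.18 ± 0.35 (SD) over 5 experiments, since the spot of 1 NaB array carried an outlier flag.

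ESRP1 and ESRP2 encode epithelial splicing regulatory proteins, which ZEB1 is known to repress. The ESRP1 probe lies on chromosome 8 (95749535-95749594, NCBI36, plus strand). Its level was between -0.85 and 0.38 (median 0.03) in the Ctl samples and between -2.21 and -0.95 (median -1.25) in the NaB samples. The Doxy samples lay between -0.76 and 0.49 (median 0.20) and the DoxyNaB samples between -2.59 and -0.89 (median -1.52). Experiment 1 was lowest under every treatment, and the groups with and without butyrate did not overlap. ESRP1 fell 2.59-fold in NaB/Ctl (log2 -1.37 ± 0.10 SE, limma adjusted p = 5.72e-10) and 3.18-fold in DoxyNaB/Doxy (log2 -1.67 ± 0.10, limma adjusted p = 3.71e-11). ESRP2 is measured by a probe printed in 10 spots on chromosome 16 (66820555-66820614, NCBI36, minus strand). Its level ran from 0.67 to 1.30 (median 1.08) in the Ctl samples and from -0.39 to 0.04 (median -0.07) in the NaB samples. It was 0.72 to 1.18 (median 0.95) in Doxy and -0.25 to 0.16 (median -0.06) in DoxyNaB. Every sample with butyrate was again below every sample without it. ESRP2 fell 2.25-fold in NaB/Ctl (log2 -1.17 ± 0.07, limma adjusted p = 2.13e-11). In DoxyNaB/Doxy it was 1.97-fold lower (log2 -0.98 ± 0.07, limma adjusted p = 2.53e-10), short of the threshold, and -1.02 without experiment 6.

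CDH2, the N-cadherin of mesenchymal and neural cells, and ZEB2, a second ZEB repressor, were not tested because no treatment had all 6 arrays well above background. The CDH2 probe at 23786079-23786138 on the minus strand of chromosome 18 (NCBI36) passed on all 12 arrays of experiments 2 to 4, where its level ran from -3.46 to -1.48. On the other 12 arrays it was so on 0, with levels of -7.28 to -5.49. The same split was seen for the ZEB2 probe at 144898833-144898892 on the minus strand of chromosome 2 (NCBI36), with levels of -4.32 to -1.13 in experiments 2 to 4 and of -7.35 to -6.40 on the other arrays. Both probes thus divided the arrays by scan, for every treatment, as did the share of spots well above background. Whether this scan difference lies in the cells or in the arrays was not tested. Within experiments 2 to 4 this ZEB2 probe was higher in NaB than in Ctl in each experiment. The levels were -2.21 against -3.13 in experiment 2, -1.43 against -3.58 in experiment 3 and -1.64 against -2.98 in experiment 4. On the same NaB arrays the negative controls were higher too, at 115, 161 and 112 against 76.9, 68.4 and 63.1 in Ctl. In DoxyNaB the probe was at -1.13, -3.73 and -1.65 in experiments 2, 3 and 4. The negative controls of these DoxyNaB arrays were at 248.9, 69.1 and 110.9. The part of the background in these ZEB2 differences was not tested.

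The second CDH2 probe, at 23784934-23784993, did not divide in this way. It was well above background on 0 Ctl, 4 NaB, 1 Doxy and 4 DoxyNaB arrays. Its level lay between -6.70 and -5.73 (median -6.01) in the Ctl samples and between -5.53 and -3.75 (median -4.46) in the NaB samples. No lower bound of this difference can be given, since the NaB arrays of experiments 1 and 3 were not well above background either. By this probe NaB was above Ctl in 6 of 6 experiments, and DoxyNaB was above Doxy in 6 of 6, by a mean of 1.83 ± 0.20 (SD) on the log2 scale. By the first CDH2 probe NaB was above Ctl in 6 of 6 (0.59 ± 0.42), but DoxyNaB was above Doxy in only 4 of 6 (0.40 ± 0.63). In experiment 3, where the first probe was well above background, DoxyNaB was at -3.46 and Doxy at -3.10. The second ZEB2 probe, at 144862731-144862790, was well above background on 0 Ctl, 2 NaB, 0 Doxy and 2 DoxyNaB arrays, all of experiments 2 and 4.

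**Figure D2:**
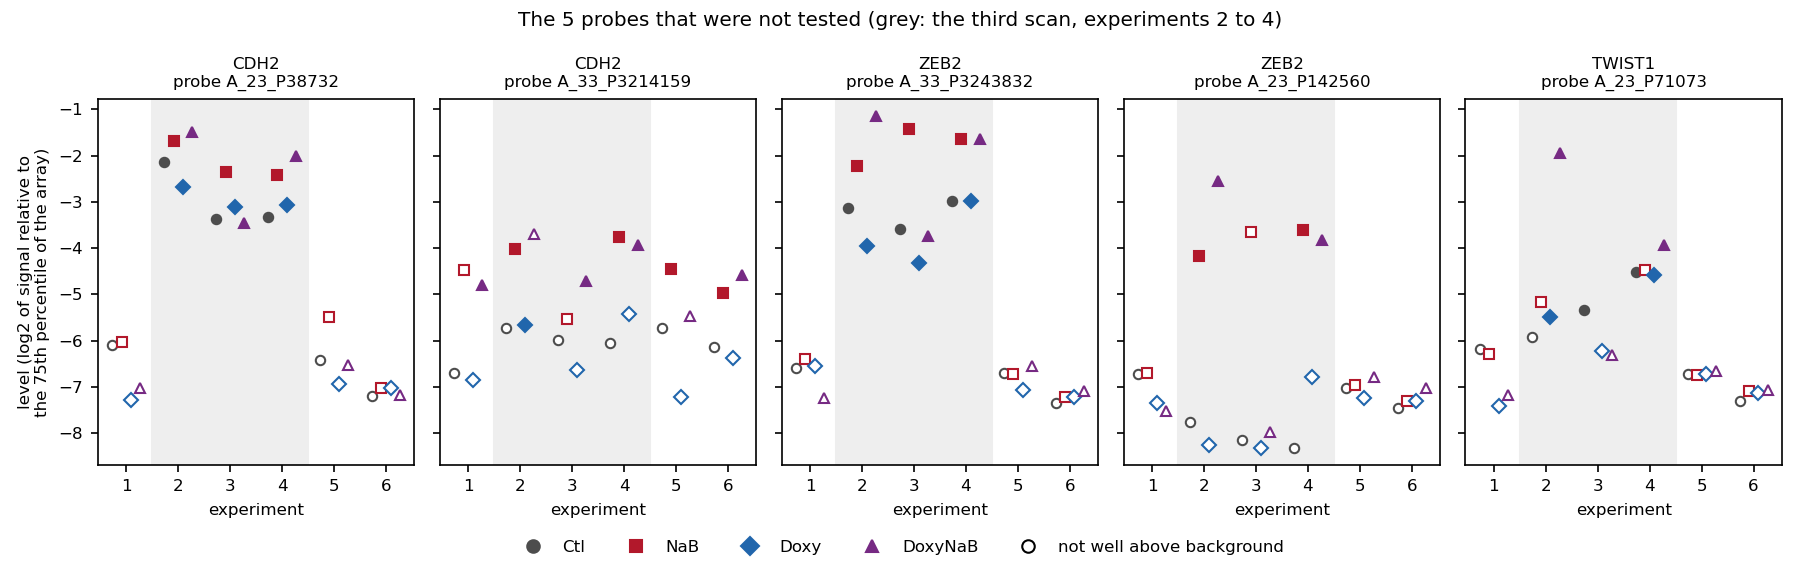
Level (log2 signal over the 75th percentile of the array) of the 5 untested probes of CDH2, ZEB2 and TWIST1 by experiment. Symbols give the treatment, filled symbols were well above background, and the grey band marks experiments 2 to 4, where the first CDH2 and ZEB2 probes were measured on 12 of 12 arrays.

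No member passed the test for doxycycline alone. By the western blot of the paper, DN-Tcf4 protein was minimal with doxycycline alone and high with both agents. Doxy/Ctl therefore does not show how the members respond to high DN-Tcf4. In Doxy/Ctl 0 of 8 were called by limma, beside 0.0948% of all probes, and the methods' t-test called 0. An unadjusted limma p under 0.05 was found for 0 of 8, against 12.65% of all probes. The largest log2 difference was that of VIM, 0.25 ± 0.13 SE (limma adjusted p = 0.426), higher in 5 of 6 experiments. The difference between the butyrate responses passed the limma threshold in 0 of 8 members, beside 1.24% of all probes, and 3 members had an unadjusted p under 0.05, VIM, SNAI2 and ESRP1, as did 12.04% of all probes. Without adjustment the methods' t-test passed 2, VIM and ESRP2, and with it 0. For ESRP2 the difference was -0.20 ± 0.09 (limma adjusted p = 0.426), negative in 6 of 6 experiments. For ESRP1 it was 0.30 ± 0.14 (limma adjusted p = 0.407), for ZEB1 0.21 ± 0.16 (limma adjusted p = 0.677) and for CDH1 0.12 ± 0.15 (limma adjusted p = 0.823).

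**Figure D3:**
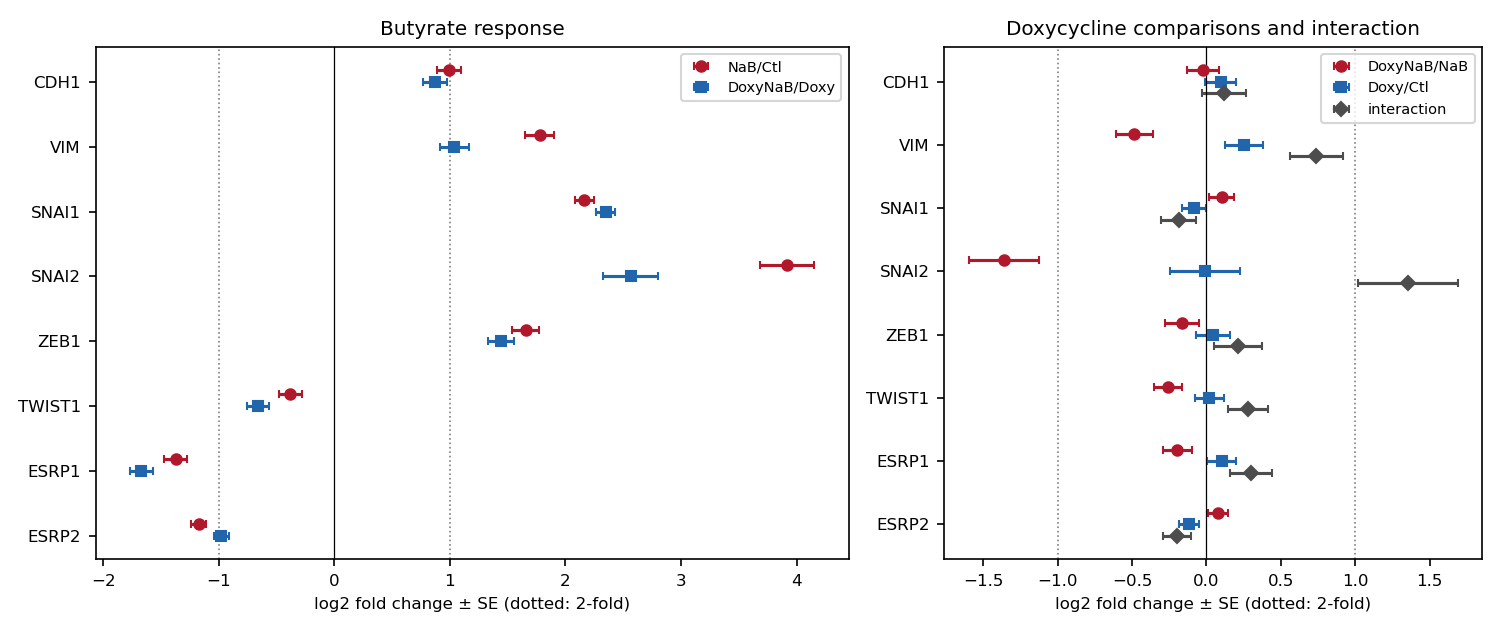
Log2 fold change with its SE for the 8 tested members, with the butyrate response on the left and the doxycycline comparisons and the difference between the responses on the right. Dotted lines mark 2-fold. SNAI2 and VIM stand away from 0 in DoxyNaB/NaB, at -1.36 and -0.48, while the Doxy/Ctl values of all 8 lie between -0.12 and 0.25.

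Within scans the butyrate responses were as follows. In NaB/Ctl 6 members were called within experiments 2 to 4, the same 6 as over all experiments, and 7 within experiments 5 and 6, where CDH1 joined them at 1.21. In DoxyNaB/Doxy 6 were called within experiments 2 to 4, with ESRP2 at -1.005, and 5 within experiments 5 and 6, with CDH1 at 1.03 and without VIM at 0.89 (limma adjusted p = 0.0204). The shares of all probes called within scans are not given here, so these counts do not set the members apart from other genes. In experiment 1 the treatments with and without butyrate were on different slides and scans and cannot be told apart from them.

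The scaling of the arrays moved every change. The median log2 change of all probes in NaB/Ctl was 0.17 as scaled here, 0.07 after normexp background correction, -0.09 after quantile normalization and -0.58 with scaling to the median, and the share of calls that were higher was 65.3%, 53.2%, 43.8% and 21.1%. Relative to these medians CDH1 was higher by 0.82, 0.96, 1.19 and 0.82. VIM was higher by 1.61, 1.11, 1.56 and 1.61, and ESRP2 lower at -1.34, -1.08, -1.10 and -1.34. Scaling to the median differs from the scaling used here by a constant per array, apart from a floor on the lowest signals. Subtracting the median over all probes removes such a constant, so these scalings had to give nearly the same relative values. Their match is therefore not a separate test of the changes. All 8 members kept the sign of their NaB/Ctl and DoxyNaB/Doxy changes under the 3 alternatives.

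**Figure D4:**
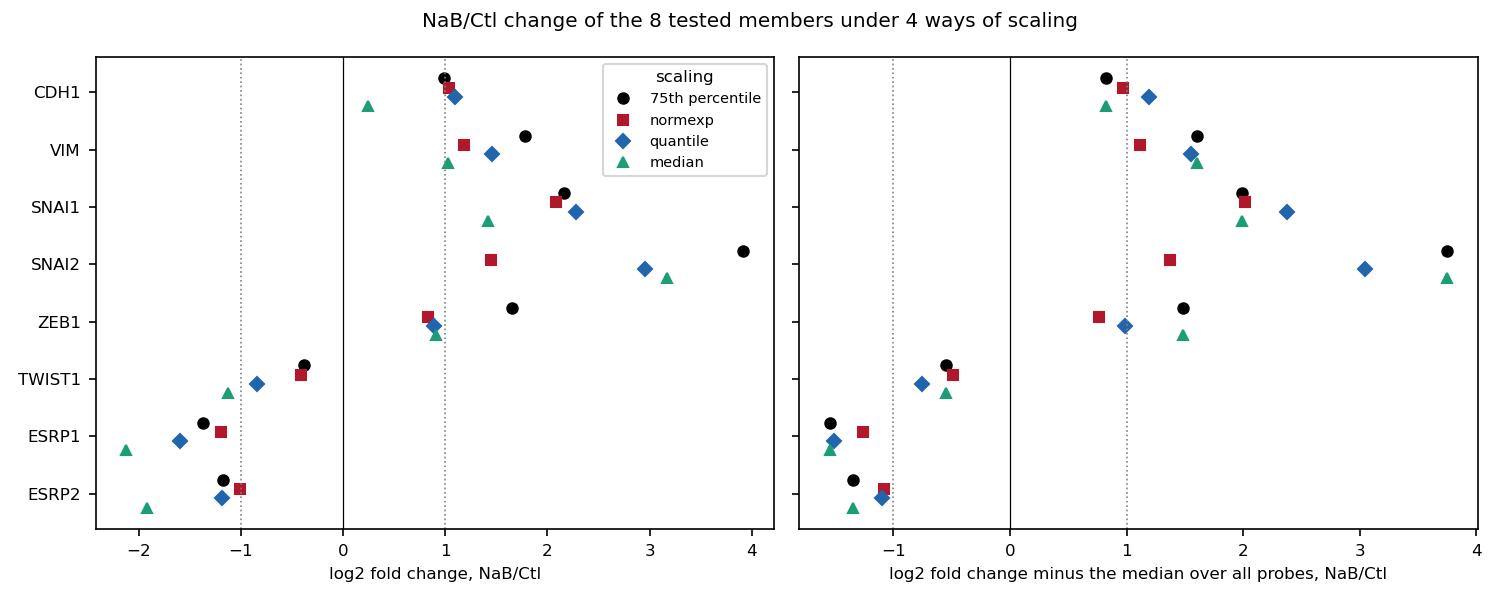
NaB/Ctl change of the 8 tested members under 4 ways of scaling, as the log2 fold change (left) and after subtracting the median over all probes (right). Dotted lines mark 2-fold. CDH1 moves from 0.99 to 0.24 on the left with scaling to the median. On the right it is 0.82 under both by construction, since the subtraction removes a constant per array.

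The genes that were most like CDH1 over the 24 arrays, by Pearson's r of the levels after subtracting the mean of each experiment, were ABCA5 (0.993), IFT80 (0.991) and CREB3L2 (0.989). For VIM they were GEM (0.978), FZD1 (0.977) and GOLGA8EP (0.977). All points share these arrays and include the difference between samples with and without butyrate.

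Other genes of the EMT network changed in both directions. In 9 lists of related genes, 118 genes were tested, of which 17 were called higher and 26 lower in NaB/Ctl, beside 21.0% and 11.5% of all genes tested. The counts depend on the scaling, with 9 higher and 19 lower after normexp background correction and 10 higher and 64 lower with scaling to the median. Calls over all probes moved too, from 6017 as scaled here (65.3% of them higher) to 3001 after normexp background correction (53.2% higher). With scaling to the median they were 7772 (21.1% higher). Shares per gene under these 2 alternatives are not given here, so the list counts under them do not set the lists apart from other genes. None of the 43 list genes called as scaled here turned its sign after normexp background correction or with scaling to the median. Genes named beyond the largest rise and fall of each list were chosen after their values were seen. Of 8 other EMT transcription factors, 3 rose, FOXC2, SNAI3 and the gene TCF4, an E-protein gene that is not the Tcf4 of the construct, and 2 fell, HMGA2 and TCF3. FOXC2, a forkhead factor with 0 Ctl and 2 Doxy arrays well above background, passed the filter only through the treatments with butyrate. It was at least 7.96-fold higher in NaB than in Ctl. The limma adjusted p of 1.59e-07 belongs to its measured log2 change of 4.84, not to this bound. HMGA2, a chromatin protein that is known to raise SNAI1 and TWIST1, fell by 4.35 ± 0.15 SE on the log2 scale (limma adjusted p = 3.05e-14). Of 9 factors that maintain epithelial cells, GRHL3 (2.78) and GRHL1 (2.25) rose and GRHL2 fell (-1.11 ± 0.09, limma adjusted p = 3.50e-09), and 6 were not called. After normexp background correction 2 and 2 genes of the first list rose and fell and 2 and 0 of the second, and with scaling to the median 3 and 3, and 2 and 4. The median log2 change was 0.49 in the first list and 0.21 in the second, against 0.17 over all genes.

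Among 21 tested genes of epithelial adhesion and desmosomes, 3 rose and 5 fell, against 1 and 5 after normexp background correction and 0 and 12 with scaling to the median. The 5 were EPCAM (-1.45), the desmosomal cadherins DSC2 (-1.97) and DSG2 (-1.67), and PKP3 (-1.23) and EVPL (-1.06) of the desmosome and the cell envelope. The 3 were the polarity gene PARD6A (1.52), PPL (1.498) and PKP2 (1.11). The median was -0.30. Among 17 mesenchymal and matrix genes, 5 rose, among them TNC (2.96), LOXL2 (2.36), WNT5B (2.23) and COL1A1 (1.09), AXL (-3.07) and SPARC (-1.78) fell, and the median was 0.02. After normexp background correction 2 rose and 2 fell, and with scaling to the median 4 rose and 7 fell. TNC, which encodes the matrix protein tenascin-C, had 2 of 6 Ctl arrays well above background, and its value was 0.71 after normexp background correction (limma adjusted p = 0.110).

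The TGF-beta pathway, an inducer of EMT, had 4 genes higher and 4 lower of 14 (2 and 2 after normexp background correction, 1 and 5 with scaling to the median). BAMBI, a decoy receptor, rose most (2.07 ± 0.07 SE, limma adjusted p = 2.96e-14), beside TGFBR3 (1.56), LTBP1 (1.36) and the ligand TGFB1 (1.19). TGIF1, a repressor of SMAD targets, fell most (-2.38 ± 0.08, limma adjusted p = 3.41e-14), beside SMAD3 (-2.31), TGFBR2 (-1.13) and SMAD6 (-1.12). Of 20 co-repressors and chromatin partners of the SNAI and ZEB proteins 0 rose and 7 fell, and the median was -0.86. The number that fell was 6 after normexp background correction and 15 with scaling to the median. They were SUV39H1 (-1.52 ± 0.24, limma adjusted p = 1.46e-05), CTBP2 (-1.45), AJUBA (-1.37), DNMT1 (-1.27), PRMT5 (-1.20), CTBP1 (-1.15) and SMARCA4 (-1.12). CTBP1 and CTBP2 are known to bind ZEB1, and AJUBA and PRMT5 to bind SNAI1. Of 9 genes in the turnover of SNAI1 protein, 0 were called by limma in NaB/Ctl, also after normexp background correction, and 3 fell with scaling to the median. The median was -0.01. In DoxyNaB/Doxy 1 of them fell, the kinase gene PAK1 (-1.08).

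ESRP1 and ESRP2 act on splicing, which the probes do not resolve. Of 11 other splicing regulators with a role in EMT, 0 rose and 3 fell, MBNL1 (-1.41 ± 0.06 SE, limma adjusted p = 1.16e-12), PTBP1 (-1.04) and MBNL2 (-1.03), and the median was -0.69. With normexp background correction 1 fell and with scaling to the median 10 did. Of 12 genes whose transcripts the ESRP proteins are known to splice, GRHL1 rose (2.25) and CD44 (-2.80 ± 0.08, limma adjusted p = 5.06e-15) and SLK (-1.02) fell, with a median of -0.26. With normexp background correction 1 rose and 1 fell, and with scaling to the median 1 rose and 6 fell.

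The difference between the butyrate responses passed the limma threshold for 6 of the 118 genes of these lists, beside 1.24% of all probes. For FOXC1 it was 0.93 ± 0.14 SE (limma adjusted p = 5.37e-04), with changes of 0.52 in NaB/Ctl and -0.41 in DoxyNaB/Doxy. TGIF1 (0.81), TGFB1 (0.74) and TGFBR2 (0.52) also had positive differences, in 6 of 6 experiments each. For ELF3, an epithelial factor, the difference was -0.72 ± 0.09 (limma adjusted p = 1.92e-04), and for PPL it was -0.71 ± 0.12 (limma adjusted p = 0.00173), negative in 6 of 6. After normexp background correction these 6 kept their direction with limma adjusted p-values of 0.0398 to 0.352. None of them passed after this correction or with scaling to the median, where 43 and 9 of all probes passed.

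**Figure D5:**
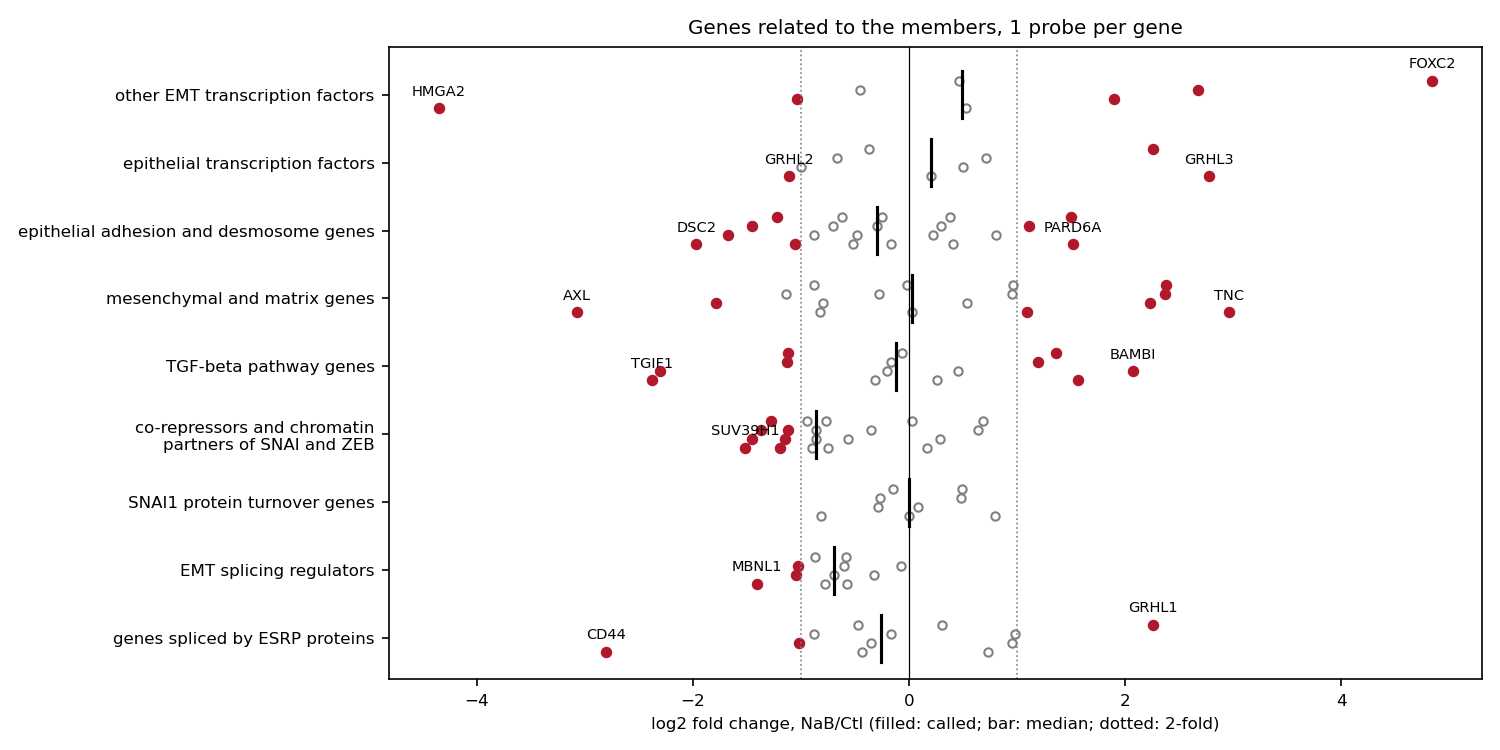
NaB/Ctl log2 fold change of 118 genes in 9 lists related to the members, 1 probe per gene, with called genes filled, list medians as bars and 2-fold as dotted lines. The lowest and highest called genes are named. The median of the co-repressor list lies at -0.86 and that of the SNAI1 turnover list at -0.01.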

How the data were processed

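Total RNA of 24 samples, in 4 treatments of 6 experiments, was hybridised in 1 colour to 44495 spots. The deposited intensity values were written by Agilent Feature Extraction 9.5.3.1 per the file headers, which names the build NCBI36. In this processed signal the software had taken out the background and a spatial trend of each array, with no scaling between arrays. Per the methods, the authors used GeneSpring GX and a paired test.

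Spots of controls and those flagged as outliers (359 to 795 per array) were dropped, and probes printed in 10 spots were averaged. The log2 signal was set relative to the 75th percentile of the array, which lay at 380.2 to 1323, from the deposited intensity. Signal over background and the number of arrays limit the precision. Probes were named from accessions (24827), the files (7524), or a current (1276) or older symbol (500), with a RefSeq table of GRCh38.p14 used for names and for upstream sequence. The model was fitted by limma 3.58.1 in R 4.3.3 over all 24 arrays, with the experiment as block. The methods pair the samples, and in experiments 2 to 6 the arrays of the same experiment lie on the same slide. Deviations from the treatment mean correlated within experiments with r of 0.219 to 0.853, except -0.224 between the NaB and DoxyNaB arrays of experiment 3. Calls needed a fold over 2 and an adjusted p under 0.01, and the difference between responses, (NaB - Ctl) - (DoxyNaB - Doxy), an adjusted p under 0.01 alone. The tested probe with the highest mean stands for its gene.

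All members and every probe are named. Of each related list the largest rise and fall called in NaB/Ctl and the genes past the test of the difference are named, and the 3 genes most like CDH1 and VIM. The members and lists were chosen with earlier results of these data known. The values of 1 gene of the lists are not reported here. Each script was tested on simulated data. Alternatives were the background correction, quantile and median scaling, filters, thresholds, blocks, the methods' t-test, the mean over probes, leaving out each experiment or the 2 arrays of highest negative controls, and single scans. Further steps used Python 3.11.15 (pandas 2.3.3, matplotlib 3.10.9, numpy 2.4.6).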

Additional observations from a re-analysis of the deposited data

Results flagged for a closer look

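Among 56 groups of 6 arrays (14 probes under 4 treatments, with 5 values for TWIST1 in NaB by its probe at 19122170), 5 held 1 array that stood apart from the others by more than Dixon's critical value at 95%. Chance sets apart about 1 in 20 groups. CDH1 was at 1.03 on the Ctl array of experiment 2, against 0.87 on the nearest array. VIM was at -0.89 on the NaB array of experiment 6, against -0.36. SNAI1 was at 3.49 on the NaB array of experiment 1, against 2.95. TWIST1, by its probe at 19122987, was at -0.68 on the Doxy array of experiment 1, against -1.04. ESRP1 was at -0.85 on the Ctl array of experiment 1, against -0.07. The arrays of SNAI1, TWIST1 and ESRP1 all belong to experiment 1.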

How the results depend on the processing

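In NaB/Ctl and DoxyNaB/Doxy no member changed direction under any alternative, and the fit with no replicate block called 6, 5, 1, 0 and 0 members in NaB/Ctl, DoxyNaB/Doxy, DoxyNaB/NaB, Doxy/Ctl and the difference between responses, the same counts and members as with the block. At a fold over 1.5, 8 members were called in DoxyNaB/Doxy. The shares of all probes called with no block and at this fold are not given here. In DoxyNaB/NaB the count fell from 1 to 0 with normexp background correction, scaling to the median, the adjusted methods' t-test, without the 2 arrays of highest negative controls, within experiments 2 to 4 and within experiments 5 and 6, and with a filter on all 24 arrays, where SNAI2 was not tested. Leaving out 1 experiment gave 0 to 1 there and 0 to 1 for the difference between responses, which passed for 2 members at an adjusted p under 0.05 (VIM and SNAI2) and for 2 with the unadjusted methods' t-test (VIM and ESRP2).

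Directions turned only in comparisons where the member was not called. In DoxyNaB/NaB, normexp background correction gave ZEB1 0.069, SNAI1 -0.022, TWIST1 0.0057 and ESRP1 0.073. There CDH1 was 0.082 with scaling to the median, 0.050 without the 2 arrays, 0.078 within experiments 5 and 6, and -0.061 to 0.092 on leaving out 1 experiment (highest without replicate 2). In Doxy/Ctl, normexp gave VIM -0.053, ZEB1 -0.15 and TWIST1 -0.080, quantile normalization ZEB1 -0.074 and TWIST1 -0.020, and scaling to the median ZEB1 -0.040 and TWIST1 -0.066. There SNAI2 was -0.16 to 0.28 on leaving out 1 experiment (above 0 without replicate 1, 3 or 4), 0.098 within experiments 2 to 4 and 0.57 within experiments 5 and 6. In the same comparison TWIST1 was -0.056 within experiments 5 and 6, VIM -0.036 within experiments 2 to 4 and ZEB1 -0.028 as the mean over its probes. For the difference between responses, normexp gave ZEB1 -0.22 and TWIST1 -0.086, and scaling to the median CDH1 -0.071. The cause was not tested. Levels near background limit SNAI2, CDH2 and ZEB2.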
